A study of Mus musculus with 2 samples.

Results

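The axon guidance genes of the semaphorin, plexin, ephrin, Eph, Slit, Robo, Unc5 and netrin families were described in total RNA of the embryonic mouse heart. They were chosen by name: every protein-coding gene of the GENCODE M21 annotation called Sema, Epha, Ephb, Efna, Efnb, Slit, Robo or Ntn plus a digit, Plxn, or Unc5a to Unc5d. The rule found 66 genes, of which 65 had a row in both gene tables, out of 21461 nuclear protein-coding genes with a row. Ntn3 was not analysed here. The 65 were 20 semaphorins (7 of class 3 and 13 others), 9 plexins, 8 ephrins, 14 Eph receptors, 3 Slits, 4 Robos, 3 netrins and 4 Unc5 receptors, or 34 ligands and 31 receptors. The single group was whole heart of strain B6NCrl at embryonic day 16.5, pooled from male and female embryos, with no genetic change or treatment stated. It was sequenced as 2 libraries, numbered biological replicates 1 and 2. The pool of replicate 2 came from 41 embryos, and the number for replicate 1 is not stated. Each library is 1 pool, the labels give separate biosamples under the same donor identifier, and nothing says that the pools came from separate litters.

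Guidance ligands are secreted or membrane-bound proteins that steer growing axons and migrating cells by attraction or repulsion. Class 3 semaphorins are secreted and signal through plexins with a neuropilin as co-receptor, while most other semaphorins bind plexins directly. Ephrins sit on the cell surface and signal in both directions with Eph receptor kinases on neighbouring cells. Slits bind Robo receptors, and netrins bind Dcc, neogenin and Unc5 receptors. In the heart and its vessels the same proteins are known for outflow tract septation, the separation of arteries from veins, vessel stability and the patterning of sympathetic nerves.

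The libraries held 37160624 estimated counts in replicate 1 and 40360242 in replicate 2. Levels are in TPM, a relative abundance of transcripts that corrects for gene length. Unless named otherwise, paired values are replicate 1 and then replicate 2, means carry the SD over both libraries (n = 2), and ratios between libraries are replicate 2 over replicate 1. No test was run, because the smallest p that an exact sign-flip test could give from 2 values is 0.5. All 4 heart muscle markers, all 4 endothelial markers and all 3 epicardial markers passed 1 TPM in both libraries. Markers of other organs were present too and differed between the pools. Those of lung epithelium summed to 941 and 102 TPM, of thymocytes to 37.4 and 99.5 TPM, of thymic epithelium to 11.4 and 23.9 TPM and of fast skeletal muscle to 169 and 214 TPM. Most of the last sum was Acta1, which embryonic heart also expresses, and without it the other 3 muscle markers summed to 5.73 and 17.5 TPM. Of the neuron markers, Tubb3 was at 3.83 and 5.51 TPM and Elavl4 at 2.60 and 2.78 TPM, while Th, which marks sympathetic neurons, was at 0.26 and 0.21 TPM. In bulk tissue, fewer cells of a type and less RNA per cell cannot be told apart.

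Most of the guidance genes were expressed, at modest levels. In both libraries 47 of 65, or 72.3%, reached 1 TPM, against 59.1% of all nuclear protein-coding genes. Their median was 4.66 TPM, against 3.68 TPM for all protein-coding genes, but the 47 expressed genes had a median of 6.79 TPM, against 15.9 TPM for all expressed protein-coding genes. A mean of 5 TPM was reached by 30 of the genes, 10 TPM by 13 and 20 TPM by 5. At the other end, 5 genes were under 0.1 TPM in both libraries and 13 lay in between. All 65 together summed to 551 and 452 TPM, which was 0.0672% and 0.0580% of the protein-coding TPM. The sum was concentrated, since the 5 highest genes held 39.4% of it and the 10 highest 56.0%. These 5 were the plexin Plxnb2, the ephrins Efnb3 and Efna1, and the Eph receptors Ephb4 and Epha7.

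**Figure D1:**
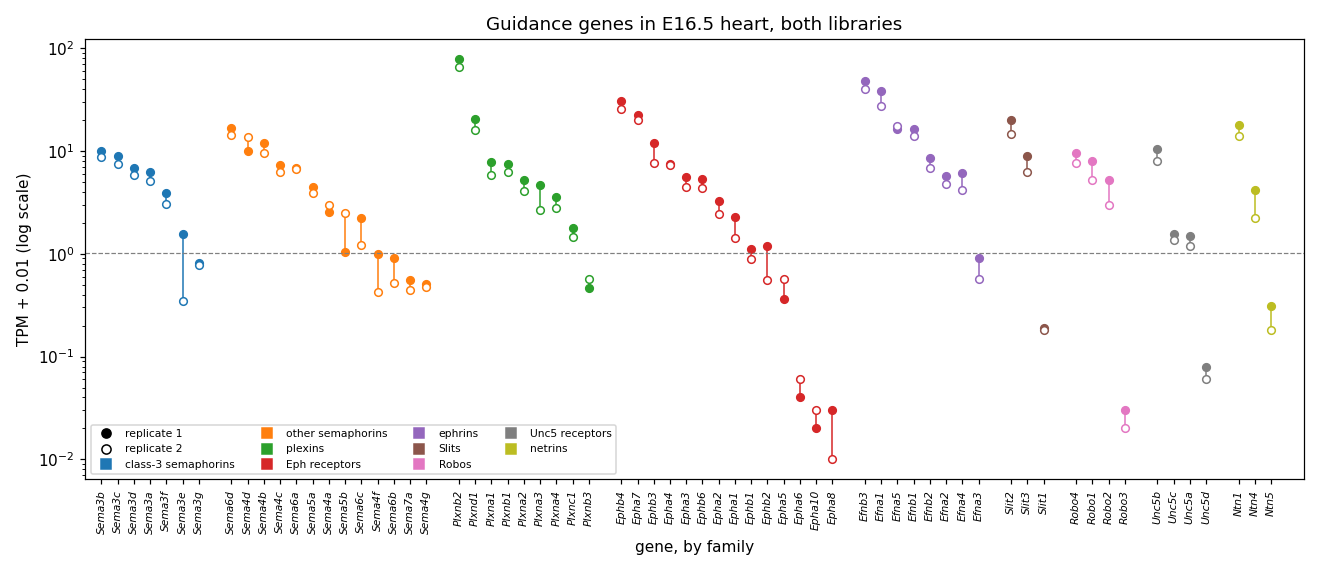
TPM + 0.01 on a log axis for each of the 65 genes, grouped by family and sorted by mean within it. Filled points are replicate 1, open points replicate 2, and the dashed line marks 1 TPM. Plxnb2 stands highest at 78.3 and 65.9 TPM, and 5 genes lie under 0.1 TPM in both libraries.

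By family, ephrins held the largest share of the guidance TPM, 25.3% ± 0.03, followed by plexins with 23.4% ± 0.10 and Eph receptors with 16.6% ± 0.02. The 13 semaphorins outside class 3 held 12.8% ± 1.32, and class 3 held 6.92% ± 0.0034. Slits followed with 4.95% ± 0.43, netrins with 3.83% ± 0.28, Robos with 3.78% ± 0.45 and Unc5 receptors with 2.39% ± 0.10. Ligands held 53.8% ± 0.64 and receptors 46.2% ± 0.64. The order rests on the correction for length, the median length being 2767 nt for ephrins and 6907 nt for plexins. By estimated counts, ephrins held 16.6% and plexins 28.5%, and ligands 47.7% and receptors 52.3%.

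**Figure D2:**
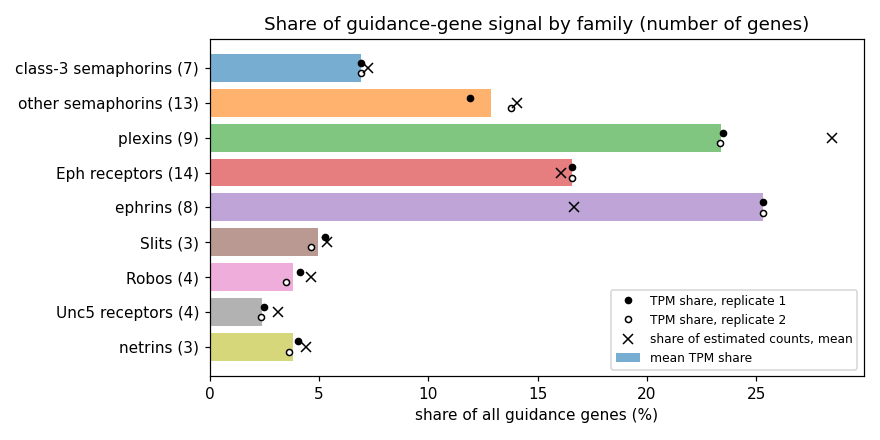
Share of the summed TPM of all 65 guidance genes held by each family, in percent, with the number of genes in brackets. Bars are means of both libraries, points the single libraries, and crosses the mean share of estimated counts. Ephrins lead by TPM (25.3%) and plexins by counts (28.5%).

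Among class 3 semaphorins, 5 of 7 reached 1 TPM in both libraries, with means between 3.49 and 9.42 TPM. Sema3b, a repellent that is also studied as a tumour suppressor, was highest at 10.1 and 8.78 TPM. Sema3c, which is known for guiding neural crest cells into the outflow tract, was at 8.85 and 7.42 TPM. Sema3d, known for patterning of the pulmonary veins, was at 6.84 and 5.81 TPM. Sema3a, the repellent that shapes the sympathetic innervation of the mouse heart, was at 6.15 and 5.13 TPM. All 4 were lower in replicate 2. The ratio of Sema3c to Sema3a was 0.52 ± 0.0042 on the log2 scale, nearly the same in both libraries. The authors' intervals of these genes overlapped in replicate 1 and were apart in replicate 2. Sema3f, a ligand of neuropilin 2, was at 3.91 and 3.06 TPM, 2.67-fold under Sema3b. Both values lay below the authors' own intervals, 4.27 to 6.59 TPM in replicate 1 and 3.19 to 5.22 TPM in replicate 2. Sema3e, which binds Plxnd1 without a neuropilin, was at 1.56 and 0.34 TPM. Sema3g, known from endothelium, was at 0.81 and 0.77 TPM.

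The other semaphorins are membrane proteins, apart from the lipid-anchored Sema7a. Of these 13, 9 reached 1 TPM in both libraries. Sema6d, a ligand of Plxna1 known from chick heart development, was highest at 16.5 and 14.1 TPM. Sema4d, also known as CD100, a Plxnb1 ligand found on T cells, was at 9.87 and 13.6 TPM, and was higher in replicate 2. Sema4b was at 11.9 and 9.48 TPM, and Sema4c, a ligand of Plxnb2, at 7.35 and 6.22 TPM. Sema6a, which binds Plxna2 and Plxna4, was at 6.77 and 6.59 TPM, 2.27-fold under Sema6d. Sema5a, Sema4a, Sema5b and Sema6c had means between 1.72 and 4.2 TPM. Sema4f, Sema6b, Sema7a and Sema4g had means between 0.48 and 0.70 TPM. Sema4f was at 0.99 and 0.41 TPM, and Sema5b, which carries thrombospondin repeats as Sema5a does, was at 1.02 and 2.45 TPM.

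Plexins are the semaphorin receptors, and 8 of 9 reached 1 TPM in both libraries. Plxnb2, a receptor of class 4 semaphorins, was at 78.3 and 65.9 TPM, above 91.5% of protein-coding genes. It exceeded its relative Plxnb1, at 7.36 and 6.24 TPM, by 10.5-fold per length and by 5.17-fold in counts not corrected for length. Plxnd1, the endothelial receptor of Sema3e that is needed for outflow tract septation in mice, was at 20.2 and 16.1 TPM. It stood 10.7-fold above Plxnc1, the receptor of Sema7a, at 1.76 and 1.45 TPM. Plxna1, which pairs with neuropilins, was at 7.79 and 5.83 TPM. It was 1.45-fold above Plxna2, at 5.22 and 4.09 TPM. Plxna3 and Plxna4, which also pair with neuropilins, had means of 3.66 and 3.16 TPM. Plxnb3 was the exception at 0.45 and 0.56 TPM. The class 3 co-receptor Nrp1 was at 76.3 and 73.2 TPM, 11.8-fold above Nrp2, at 7.07 and 5.47 TPM.

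Ephrins of the A group are held by a lipid anchor and those of the B group span the membrane. Of the 8 ephrins, 7 reached 1 TPM in both libraries. Efnb3, known as a midline barrier to axons of the spinal cord, led at 47.6 and 39.6 TPM, above 85.9% of protein-coding genes. Efna1, known from endothelium and heart valve development, followed at 38.0 and 27.4 TPM. Efna5, known from the mapping of retinal axons, was at 16.5 and 17.5 TPM, so that Efna1 exceeded it by 1.90-fold per length. By counts not corrected for length Efna5 was the higher of the pair. Efnb1, known from craniofacial development, was at 16.2 and 13.8 TPM, 1.96-fold above Efnb2, the marker of arterial endothelium, at 8.43 and 6.81 TPM. Efna2 and Efna4 had means of 5.25 and 5.14 TPM, and Efna3 had 0.90 and 0.56 TPM.

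Of the Eph receptors, the receptor kinases for ephrins, 8 of 14 reached 1 TPM in both libraries, and means lay between 0.01 and 28.0 TPM. Ephb4, the marker of venous endothelium, was highest at 30.4 and 25.5 TPM. Its arterial partner Efnb2 stood below it at -1.86 ± 0.04 on the log2 scale, or 3.64-fold lower. Epha7, which is best known from the nervous system, was at 22.4 and 20.1 TPM. Ephb3, at 11.9 and 7.58 TPM, was 2.91-fold under Ephb4. Epha4, which binds ephrins of both groups and is known from motor axons, was at 7.48 and 7.20 TPM. Epha3, known for the development of the atrioventricular cushions, and the kinase-inactive Ephb6 had means of 4.97 and 4.84 TPM. Epha2 and Epha1 had means of 2.86 and 1.83 TPM. Ephb1, Ephb2 and Epha5 had means between 0.46 and 0.99 TPM. The remaining Eph receptors had 6 counts or fewer in each library. Epha6 had 0.03 and 0.05 TPM, from 1 and 6 counts, and the kinase-inactive Epha10 had 0.01 and 0.02 TPM, from 1 and 3 counts. Epha8 had 0.02 TPM from 3 counts in replicate 1, and none in replicate 2, where 3 counts would have been 0.022 TPM.

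Slit2 was the highest Slit by gene TPM, at 19.8 and 14.7 TPM. Slit3, at 9.00 and 6.17 TPM, was 2.27-fold under it. The Slit2 level includes a retained-intron transcript, Slit2-207, at 7.76 and 6.08 TPM. The main coding forms were closer, Slit2-202 at 6.69 and 6.51 TPM and Slit3-201 at 6.01 and 5.04 TPM. Slit1, which is best known from the nervous system, was at 0.18 and 0.17 TPM. Of their receptors, Robo4, which is known from endothelium, was at 9.58 and 7.53 TPM. Robo1 was at 7.89 and 5.17 TPM and Robo2 at 5.14 and 2.96 TPM, and both are known from neurons and from heart development. Robo4 exceeded Robo1 by 1.32-fold per length, and by counts not corrected for length Robo1 was the higher. Robo3, the receptor of commissural axons, had 1 count in each library, or 0.02 and 0.01 TPM. Robo3 and Robo4 lie end to end on mouse chromosome 9 (GRCm38, the same assembly as mm10), pointing toward each other with 553 bases between them and no protein-coding gene in the gap. Robo4 spans 37401897 to 37415115 on the plus strand and Robo3 spans 37415669 to 37433246 on the minus strand.

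The Slit genes also carry a microRNA that is known to act on Robo transcripts. Mir218-1 lies within Slit2 on chromosome 5 and Mir218-2 within Slit3 on chromosome 11, each on the strand of its host and outside every annotated exon of it. Both yield the same mature miR-218-5p, shown here in RNA letters with its seed, bases 2 to 8, in capitals (RefSeq, GRCm38.p6, plus strand, chr5:48223966-48223986 and chr11:35616840-35616860).
mmu-miR-218-5p: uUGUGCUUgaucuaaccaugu
The hairpin genes had 0 counts in both libraries, which kept RNA longer than 200 nt, while the hairpins are 110 nt and the mature form 21 nt. The seed pairs with the letters AAGCACA, which were searched on the sense strand of the longest 3′ UTR of each gene in M21. They occurred in Robo1, Robo2 and Robo3 and not in the annotated 3′ UTR of Robo4. The Robo1 and Robo2 sites were found in the transcripts Robo1-206 and Robo2-203. The only Robo1 form quantified here was Robo1-201, and Robo2-203 was not among the forms that held a mean of 10% or more of Robo2. Whether the RNA measured here holds these sites was not examined. The sites of the expressed receptors are shown with the match in capitals, for Robo1 at chr16:73045334-73045363 on the plus strand and for Robo2 at chr16:73895350-73895379 and chr16:73893024-73893053 on the minus strand.
Robo1: ttttttggttttaaAAGCACAatcactaaa
Robo2, first site: ttttatttggtgatAAGCACAaatctctac
Robo2, second site: gtcacggcagacccAAGCACAgcttctttc
Of the 65 guidance genes 20 held a match, or 30.8%, against 13.9% of 20673 protein-coding genes. Their 3′ UTRs were also longer, with a median of 1606 nt against 966 nt, and the part of length in these shares was not tested. Slit2 itself held 2 matches. A match is a description of letters and no measured site.

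Netrins were represented by Ntn1, the founding chemoattractant of the family, at 17.8 and 14.04 TPM. Ntn4, a basement membrane netrin, was at 4.15 and 2.20 TPM, and the ratio of Ntn1 to it was 2.35 ± 0.39 on the log2 scale. Ntn5 was at 0.30 and 0.17 TPM. Among the netrin receptors, Neo1, or neogenin, was at 14.4 and 12.3 TPM and Dcc, the attractive receptor of axons, at 0.26 and 0.24 TPM, a 38.3-fold difference. Unc5b, the Unc5 receptor known from endothelium, was at 10.5 and 7.93 TPM, 5.92-fold above Unc5c, at 1.56 and 1.36 TPM. By counts not corrected for length Unc5b was 8.18-fold above Unc5c, which had 228 and 142 counts. In replicate 2 a transcript of 357 nt, Unc5c-206, held 57.0% of the Unc5c TPM from 5.93 counts. The coding Unc5c-202 was at 0.75 and 0.45 TPM. Unc5a was at 1.46 and 1.19 TPM. Unc5d had 0.07 and 0.05 TPM, from 16 and 13 counts.

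Of the 17 pairs of related genes, 16 were called different, meaning the same direction in both libraries and intervals that did not overlap in either. The first gene was higher in 11 and the second in 5, and Sema3c with Sema3a was the pair without a call. The largest ratio was that of Neo1 to Dcc, 5.26 ± 0.11 on the log2 scale. The ratio of Sema3d to Sema3e varied most between the libraries, 2.06 in replicate 1 and 3.75 in replicate 2. Using counts that are not per length turned the direction of Efna1 over Efna5, from 0.92 to -0.56, and of Robo4 over Robo1, from 0.41 to -0.62. It moved the size by over 1.5 times without a turn in 4 other pairs: Plxnb2 over Plxnb1 was 2.37 by counts and 3.39 by TPM, Sema6a over Sema6d -1.82 and -1.18, Ntn1 over Ntn4 3.31 and 2.35, and Neo1 over Dcc 6.31 and 5.26.

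**Figure D3:**
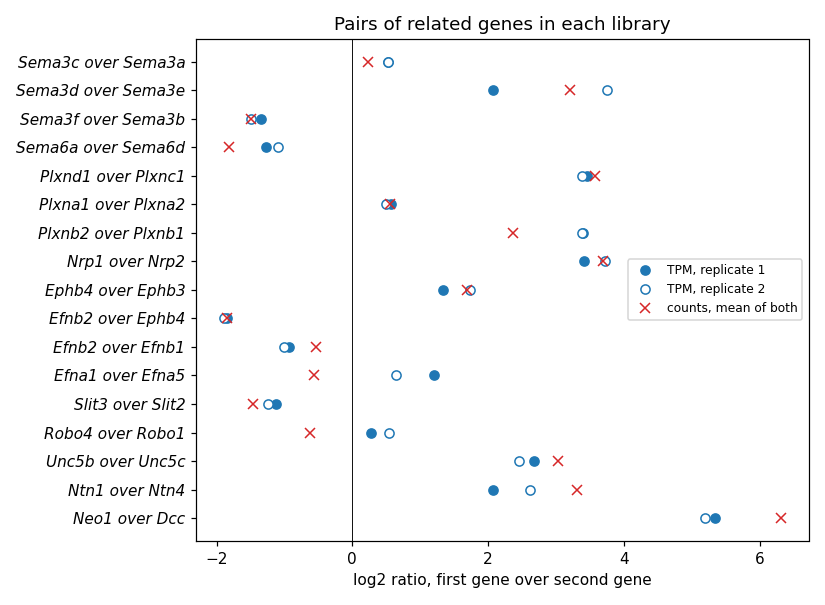
Log2 ratio of TPM + 0.1 of the first over the second gene of 17 pairs, with filled points for replicate 1 and open points for replicate 2. Crosses are the mean log2 ratio of estimated counts, which do not correct for length. The crosses lie on the other side of 0 for Efna1 over Efna5 and for Robo4 over Robo1.

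Most listed partners and downstream genes of these pathways reached 1 TPM. Of 104 genes in 8 lists, 103 were measured, their median was 10.2 TPM, and 90 passed 1 TPM in each library. Over all nuclear protein-coding genes the median was 3.68 TPM and 59.1% did so. Among partners of semaphorins 10 of 13 did so, led by integrin beta 1, Itgb1 (289 and 278 TPM), Kdr (38.5 and 30.4), Erbb2 (35.0 and 27.2) and Tyrobp (29.0 and 25.7). Timd2 was at 0 and 0.06 TPM. Of 22 semaphorin effectors 21 did so, led by the collapsin response mediators Dpysl3 (187 and 167 TPM) and Dpysl2 (116 and 109), the small GTPase gene Rap1b (133 and 140) and the adaptor gene Gipc1 (121 and 106). Of 21 Eph and ephrin effectors 20 did so, led by the ephrin-binding adaptor gene Sdcbp (245 and 261 TPM), Pdlim7 (207 and 181), Rgs3 (51.9 and 49.6) and Nck1 (47.7 and 52.5).

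Of 22 Slit and netrin effectors 20 reached 1 TPM in both libraries, led by Maged1 (322 and 294 TPM), the actin regulators Vasp (71.9 and 66.8) and Ablim1 (63.6 and 57.5), and Nck1. Of 4 other netrin receptors Mcam (92.2 and 81.1 TPM) and Neo1 did so, while Dscam was at 0.02 and 0 TPM. Of the 12 measured genes of the Flrt, Rgm and related group 9 did so, led by the latrophilin Adgrl2 (22.0 and 19.6 TPM), Vasn (14.3 and 12.5), Flrt2 (14.8 and 11.4) and Flrt3 (10.7 and 9.63). Draxin, a netrin antagonist, was at 0.02 and 0.01 TPM. Of 11 proteases that cut guidance proteins 10 did so, among them Mmp14 (80.0 and 69.9 TPM), the ephrin sheddase gene Adam10 (47.7 and 46.3) and Adamts1 (39.6 and 31.9). Furin, which activates class 3 semaphorins, was at 11.9 and 8.79 TPM.

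The guidance genes were mostly lower in replicate 2. Among the 47 that averaged 1 TPM or more, 42 were higher in replicate 1 after TMM scaling of the counts, or 89.4%, against 56.2% of protein-coding genes. The median log2 ratio was -0.30, against -0.03 over the 12974 protein-coding genes, and 41 of 47 were within 1.5-fold, 87.2% against 92.9%. Both roles shared the direction, with 21 of 25 ligands and 21 of 22 receptors higher in replicate 1. The other 5, or 10.6% against 43.8% of protein-coding genes, were higher in replicate 2: these were Sema5b, Sema4d, Sema4a, Epha4 and Efna5, at 0.64, 0.56, 0.28, 0.14 and 0.11 on the log2 scale. By TPM Epha4 was not among them. In the 8 lists 20 of 92 genes were higher in replicate 2 and none was more than 2-fold apart by the rule below. Length moved with the result: the 47 genes had a median length of 3992 nt, against 2451 nt for the protein-coding genes, and 73.2% of the 2505 protein-coding genes at least that long were higher in replicate 1, with a median log2 ratio of -0.11. Fibroblast markers had a median of -0.37, with 1 of 4, Postn, higher in replicate 2 at 0.11. Medians were -0.17 for smooth muscle and pericyte, -0.15 for lymphatic endothelium, -0.09 for endothelium and -0.06 for red cell markers. They were positive for heart muscle and epicardium (0.07 each), macrophage (0.08), Schwann cell (0.10) and neuron markers (0.56). The lung epithelium markers summed to 941 and 102 TPM and the thymocyte markers to 37.4 and 99.5 TPM. The part of length, of other cell types and of library preparation in this result was not tested.

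**Figure D4:**
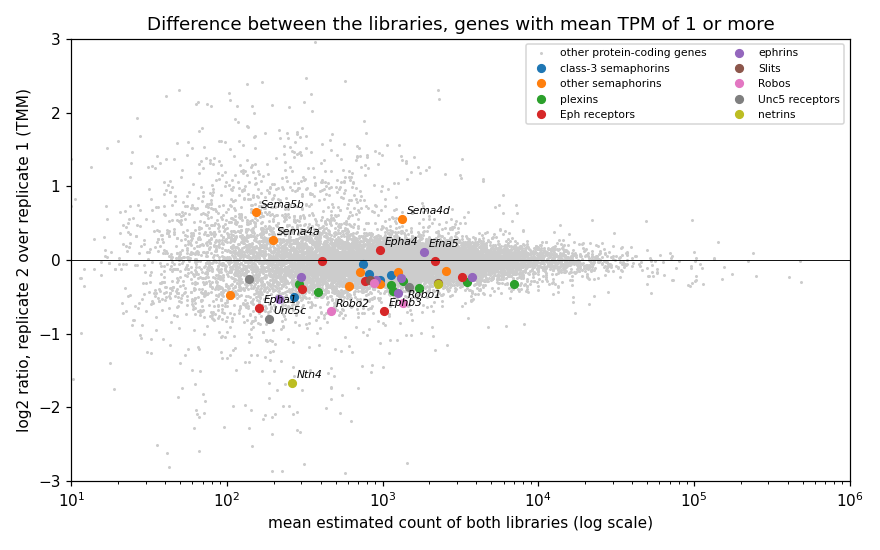
Log2 ratio of replicate 2 over replicate 1, from TMM-scaled counts, against the mean estimated count on a log axis for genes that averaged 1 TPM or more. Coloured points are the 47 guidance genes by family and grey points other protein-coding genes, of which 32 lie outside the axes. Most coloured points lie just under 0, Ntn4 lies lowest at -1.67 and Sema5b highest at 0.64.

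Under the stricter rule of at least 100 mean counts, more than 2-fold in TPM and intervals that do not overlap, 1 of 50 guidance genes differed between the libraries. It was Sema3e, with 248 and 61 counts, a log2 ratio of -1.92 in TPM. None was higher in replicate 2 by this rule. Over all 12283 protein-coding genes with that many counts, 0.814% were higher in replicate 1 and 1.27% in replicate 2. Ntn4 had 393 and 134 counts, -1.67 after TMM scaling, but -0.89 in TPM, with an estimated length of 3646 nt in replicate 1 and 2148 nt in replicate 2. Sema4f (-1.10) and Sema5b (1.19) were more than 2-fold apart in TPM but did not pass the rule. On intervals alone, with no minimum fold, 27 of the 47 genes were higher in replicate 1, or 57.4% against 20.2% of protein-coding genes. These were 14 receptors and 13 ligands. Sema4d alone was higher in replicate 2 by this rule, 2.13% against 9.73%. Its TPM lay just below its interval in each library, 9.87 against 10.01 to 12.62 in replicate 1 and 13.59 against 13.64 to 16.40 in replicate 2.

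Transcript tables show which annotated form carried each gene. Of the 30 genes that averaged 5 TPM or more, 26 had the same leading transcript in both libraries, or 86.7%, against 94.4% of protein-coding genes at that level. The leading form held at least 90% of the gene's TPM in 12 and under 50% in 6. By the mean of both libraries it was coding in 29. The exception by that mean was Slit2, where the retained-intron transcript Slit2-207 held 40.4% ± 1.56 and the coding Slit2-202 held 39.1% ± 7.45. In replicate 2 alone Slit2-202 led, at 44.4% against 41.5%. Forms that are not coding also led Epha7 in replicate 1 (Epha7-208, 26.4%) and Sema6a in replicate 2 (Sema6a-209, 28.8%). Coding transcripts held a median of 98.5%, against 97.4% for protein-coding genes that averaged 5 TPM or more. They held under 50% in 2 of the 30 genes, Slit2 and Plxnb2, against 7.89% of protein-coding genes. For the 12, 6 and 29 genes above, no share over all protein-coding genes was computed.

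In Plxnb2 the coding Plxnb2-202 held 47.5% ± 3.59, and a short processed transcript of 841 nt, Plxnb2-205, held 37.7% ± 0.56. The coding transcript alone was at 39.2 and 29.6 TPM, and it took 6575 and 5518 of the 7521 and 6502 counts of the gene. Efnb3 and Plxnd1 each had 100% on a single coding transcript. The genes with a different leading transcript in each library were Epha7, Slit2, Sema3b and Sema6a. In Sema3b the form Sema3b-205 held 45.3% in replicate 1 and 16.9% in replicate 2. Below the 5 TPM level, Ntn4-202, of 582 nt, held 0% of Ntn4 in replicate 1 and 48.9% in replicate 2, from 0 and 15.4 counts. How reads were split between overlapping forms is the authors' estimate, and no read evidence for a single form was examined.

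**Figure D5:**
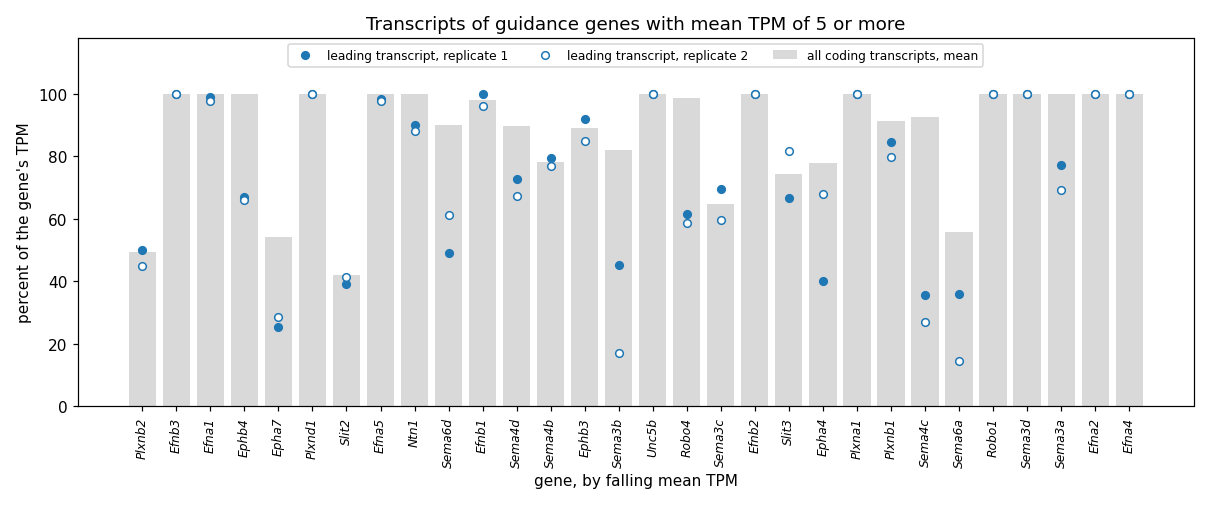
Percent of each gene's TPM on the transcript that leads by the mean of both libraries, in replicate 1 (filled points) and replicate 2 (open points). Bars give the mean share of all coding transcripts, for the 30 genes that averaged 5 TPM or more, in falling order. The bars of Plxnb2 and Slit2 are under 50%, and Sema3b and Epha4 have the points that lie farthest apart.

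Promoter sequence was available for 56 of the 65 guidance genes, as 1 window per gene from 250 bases before to 50 after the RefSeq start (GRCm38.p6). The RefSeq start nearest to the M21 gene start was used, with no limit on distance. It lay 354843 bases away for Robo1, 271370 for Sema3a and 37064 for Sema4d. These windows held no GC box and are counted in the shares. The GC box, GGGCGG on either strand, was present in 40 of 56, or 71.4%, against 48.6% of 16316 protein-coding promoters. Among genes that averaged 1 TPM or more the shares were closer, 72.5% of 40 guidance genes against 65.0% of 10159 protein-coding genes. Of the 16 guidance genes below that level 68.8% held the box. The TATA box, TATAAA, was in 2, or 3.57%, against 12.7%, and CCAAT was in 17, or 30.4%, against 38.7%, again on either strand. At a mean of 1 TPM or more the TATA shares were closer, 5% against 7.27%. The CCAAT shares there were further apart, 25% against 38.7%. The neighbours Robo4 and Robo3, far apart in level, also differ in these letters. The Robo4 window held 2 CpG pairs, no GC box, and an observed over expected CpG ratio of 0.106. The Robo3 window held 17 CpG pairs, GC boxes on both strands and a ratio of 0.600, with Robo3 at 1 count in each library. The windows are shown with GC boxes in capitals, Robo4 at chr9:37401722-37402021 on the plus strand and Robo3 at chr9:37433126-37433425 on the minus strand.
Robo4: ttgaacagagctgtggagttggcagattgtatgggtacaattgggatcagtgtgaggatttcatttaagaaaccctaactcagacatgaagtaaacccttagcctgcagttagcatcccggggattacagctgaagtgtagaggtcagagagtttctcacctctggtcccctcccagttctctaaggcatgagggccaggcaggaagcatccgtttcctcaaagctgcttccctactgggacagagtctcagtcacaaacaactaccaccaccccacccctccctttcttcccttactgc
Robo3: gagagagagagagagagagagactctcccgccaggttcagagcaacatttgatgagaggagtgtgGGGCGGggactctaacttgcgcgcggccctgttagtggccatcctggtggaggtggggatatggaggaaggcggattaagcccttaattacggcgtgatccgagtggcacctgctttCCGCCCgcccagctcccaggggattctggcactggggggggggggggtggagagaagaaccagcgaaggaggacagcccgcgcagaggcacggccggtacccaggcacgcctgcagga
No match says only that these letters are absent from the window.

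The authors' interval did not contain their TPM for 5 of the genes in replicate 1 and for 9 in replicate 2. Exons of 14 of the genes overlap a gene on the opposite strand, Ephb4 with Zan and Epha1 with Zyx among them, and whether counting used strand is not stated. Sema4a and Plxnc1 overlap a gene on the same strand, and the counts of 8 genes were not whole numbers.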

How the data were processed

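Total RNA of whole embryonic heart was sequenced in 2 libraries of a single group. Reads were quantified against mm10 and annotation M4 per the deposited notes, with a table for each library. The names of aligner and quantifier were not given in the sources used here. Deposited tables hold the authors' estimated counts per gene and transcript, not normalized. The authors computed TPM over all rows, spike-ins included. Spike-ins held 1.62% and 3.41% of the counts and took 3.25% and 6.65% of the TPM total. The deposited interval bounds of TPM are a signal with a level that is not stated. For transcripts, the deposited percent is the part of the gene's TPM that lies on that form. Lengths are those deposited, and effective length is length minus 99. The intervals cover counting and assignment error within a library only, and reads carry no molecular identifiers.

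Names, gene classes and coordinates came from GENCODE M21 by identifier without version. Log2 ratios of TPM used TPM + 0.1. Ratios of counts used counts rounded to whole numbers, 0.5 added, and TMM factors (0.990 and 1.01) from edgeR 4.0.16 in R 4.3.3, with DESeq2 1.42.0 size factors as an alternative. The biological coefficient of variation was 0.199 over 17056 genes. If the pools share animals, all spreads are technical. Tables were joined with Python 3.11.15 and pandas 2.3.3.

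Members, gene lists, pairs and thresholds were chosen with earlier results of these data known. Every member is named. Values in each library are given for the 4 highest of each family, for genes of the pairs, for members under 0.1 TPM in both libraries and for members more than 2-fold apart. Of each pathway list the 4 highest are given with any under 0.1 TPM in both libraries. Most other members are given by mean or range. Furin, and the values in each library of Sema3g, Plxnb3 and Efna3, were added after their values were seen. A floor is the TPM worth of 3 counts. The single values of some list genes are not reported here. Hjv had no match by symbol.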

Additional observations from a re-analysis of the deposited data

How the results depend on the processing

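The count of 47 guidance genes at 1 TPM in both libraries ran from 41 at a threshold of 2 TPM to 52 at 0.5 TPM, was 47 with posterior mean TPM and 48 after rescaling TPM over nuclear protein-coding genes, and was 47 to 50 in single libraries. The median of all 65 genes, 4.66 TPM, was 4.76 with posterior means, 5.81 after that rescaling and 4.09 to 5.22 in single libraries. The count of genes more than 2-fold apart was 1, and became 0 with a pseudocount of 1, 2 on fold change alone and 1 with no count filter. On intervals alone, chosen after seeing the data, it was 28. The median log2 ratio between libraries stayed between -0.32 and -0.29 under DESeq2 size factors, TPM and no filter. Of 16 pairs called, all kept their direction with posterior means and 14 with uncorrected counts, where Efna1 over Efna5 became -0.56 and Robo4 over Robo1 became -0.62, which follows from the length term being left out. The same leading transcript was found in 26 of 30 genes, also with posterior percentages, and in 40 of 47 at 1 TPM, where more genes are counted. The ephrin share was 24.4% with posterior means, 16.6% by uncorrected counts and 25.3% in either library alone. Of the 65 mean levels, 14 moved by more than the SD of the libraries with posterior means and 44 with rescaled TPM. No paired analysis was possible because there is a single group. Depth limits genes with few counts: Epha10, Epha8 and Robo3 had 3 or fewer in each library, and differences between the libraries were not detectable for them.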
